A study of Mus musculus with 6 samples.

Results

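Laminin chains are described here at the level of their transcripts in NMuMG cells, an epithelial line derived from normal mouse mammary gland, during the first hours of TGFβ1 treatment. The members are the genes of 9 laminin chains listed by symbol in the table of raw counts, namely 5 alpha chains (Lama1, Lama2, Lama3, Lama4 and Lama5), 3 beta chains (Lamb1, Lamb2 and Lamb3) and 1 gamma chain (Lamc1), out of 21240 genes counted. The rule that picks them uses their names and no measured value, but it was set with earlier results of these data known. All cells were first kept for 6 h in medium free of serum and insulin. They then received TGFβ1 at 5 ng/ml for 2 h, TGFβ1 at 5 ng/ml for 12 h, or vehicle (HCl with albumin in the treatment description, Tris-HCl with albumin in the sample labels) for 2 h. Each of the 3 groups has 2 libraries of total RNA, made with a stranded kit and called biological replicates in the labels, so that there are 6 libraries.

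Laminins are large cross-shaped proteins of the basement membrane, each made of an alpha, a beta and a gamma chain that wind around each other in a coiled coil. The alpha chain carries the globular end that binds integrins and dystroglycan on the cell surface, whereas the short arms of the chains link laminins to each other and, through nidogen, to the collagen IV network. In glandular epithelium the trimers with the alpha chain of Lama5 and the gamma chain of Lamc1 make up much of the basement membrane. The laminin with the Lama3 and Lamb3 chains, called the anchoring laminin in what follows, ties epithelial cells to the basement membrane at hemidesmosomes.

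Total counts lay between 14705886 and 23786993 per library, so that 3 counts corresponded to 0.131 to 0.191 CPM. CPM are counts brought to a common library size, here with the TMM factors of edgeR, which correct for differences in composition between libraries. Epithelial identity was checked with 6 markers of simple epithelium, of which 4 were well detected. Their summed level lay between 4957 and 5776 CPM with vehicle, 6437 and 6472 at 2 h and 10320 and 10360 at 12 h. That sum was carried by Krt8 and Krt18, while Krt19 on the same list went the other way, from 1845 and 1664 CPM with vehicle and 1661 and 1789 at 2 h to 419.9 and 489.3 at 12 h. Epcam and Cldn7, also on that list, had at most 16 and 7 counts in any library. Summed levels of markers of other cell types were low but not the same in each group. The 5 basal or myoepithelial markers, led by Krt14, lay between 2.55 and 5.18 CPM with vehicle, 8.75 and 11.8 at 2 h, and 5.70 and 9.03 at 12 h. The 5 fibroblast markers lay between 3.50 and 4.00 CPM with vehicle, 8.39 and 8.77 at 2 h, and 13.3 and 13.9 at 12 h, of which Col1a1 had 10.97 and 10.83 CPM at 12 h. The 3 endothelial markers went from between 0.118 and 0.191 CPM with vehicle to between 1.74 and 1.95 at 12 h, nearly all of it Cdh5, and the 3 leukocyte markers stayed between 4.14 and 6.81 CPM. Oxtr, Thy1 and Cd3e had 0 counts throughout. The part of these cell type markers in the laminin results was not tested. In bulk RNA, fewer cells of a type and less RNA per cell cannot be told apart.

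The transcribed regions of the chains differ widely in size. On the NCBIM37 assembly (mm9), Lama5 (Entrez 16776) spans chr2:179911078-179960564 on the minus strand and Lamb1 (16777) chr12:31950099-32014509 on the plus strand. Lamb2 (16779) spans chr9:108382193-108392861 and Lamb3 (16780) chr1:195128151-195170072, both on the plus strand, and Lamc1 (226519) spans chr1:155066052-155179916 on the minus strand. The exons of each chain shared 0 stretches of 50 bases with any other laminin chain and overlapped no other counted gene on the same strand. Only exact matches were searched, and the rest of the genome was not compared.

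Promoters were read because the chains moved in different directions, and because TGFβ signals through SMAD proteins, which bind short GTCTG boxes, often beside AP-1. RefSeq windows on GRCm38.p6, from 250 bases before to 50 bases after a transcript start, were given for 5 of the chains (6 windows). Shown 5′ to 3′ on the strand of the gene is the outer part of the window for 4 chains that passed the filter on low counts. For Lama5, Lamb1 and Lamb2, bases inside the RefSeq span of the gene are left out, so that the stretch ends 46 bases before the start of the window's transcript for Lama5, 148 bases before it for Lamb1 and 16 bases before it for Lamb2. For Lamb3 no base before the start of the window's transcript is left out. The stretches are given with GTCTG or its reverse complement CAGAC in capitals. They are chr2:180225905-180226109 on the minus strand for Lama5, chr12:31265043-31265145 for Lamb1, chr9:108479612-108479846 for Lamb2 and chr1:193301744-193301993 for Lamb3, the last of which lies inside the RefSeq span of Lamb3 before a downstream start.
Lama5: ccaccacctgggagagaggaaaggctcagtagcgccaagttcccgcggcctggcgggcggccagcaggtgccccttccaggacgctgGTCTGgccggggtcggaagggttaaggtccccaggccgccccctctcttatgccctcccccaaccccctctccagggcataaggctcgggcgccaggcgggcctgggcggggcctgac
Lamb1: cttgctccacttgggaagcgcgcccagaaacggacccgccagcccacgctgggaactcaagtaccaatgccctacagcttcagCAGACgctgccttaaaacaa
Lamb2: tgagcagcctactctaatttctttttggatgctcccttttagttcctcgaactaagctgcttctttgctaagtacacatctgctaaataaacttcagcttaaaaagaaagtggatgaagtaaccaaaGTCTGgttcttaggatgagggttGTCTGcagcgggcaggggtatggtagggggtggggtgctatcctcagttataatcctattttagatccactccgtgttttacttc
Lamb3: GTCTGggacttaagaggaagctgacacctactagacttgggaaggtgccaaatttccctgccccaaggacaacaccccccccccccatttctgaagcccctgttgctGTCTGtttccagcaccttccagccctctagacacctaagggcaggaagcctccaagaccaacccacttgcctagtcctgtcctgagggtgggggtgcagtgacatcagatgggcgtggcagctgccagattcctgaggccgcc
The box was found on either strand in all 6 windows, including 2 copies each in the stretches of Lamb2 and Lamb3 shown above, and it was also found in 49.6% of the 32851 windows of genes that were searched. The AP-1 motif TGANTCA (7.81% of all windows) and the paired box GTCTAGAC (0.213%) were searched on both strands and had no match in the 6 windows. These matches describe letters in a short window, and the box was present both in chains that rose and in chains that fell.

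The 9 chain genes differed in level by several orders of magnitude. Lama5, Lamb1, Lamb2, Lamb3 and Lamc1 reached 2 CPM in 2 or more libraries, the filter on low counts, and were tested, whereas Lama1, Lama2, Lama3 and Lama4 did not pass it. At 2 h, 3 of the 5 tested chains (Lama5, Lamb1 and Lamb3) were called higher than with vehicle and 0 were called lower, a call being an adjusted p under 0.05 by the quasi-likelihood test of edgeR with Benjamini-Hochberg adjustment over 11080 genes. Of all genes tested, 15.2% were called at 2 h, 9.91% higher and 5.25% lower. At 12 h, 2 chains (Lamb1 and Lamb3) were higher and 3 (Lama5, Lamb2 and Lamc1) were lower than with vehicle, against a background of 43.3% called, 21.8% higher and 21.5% lower. Between 2 h and 12 h, 2 chains rose and 3 fell, against 34.1% of all genes (15.2% higher, 18.9% lower). With a log2FC above 1 in size as a further condition, 2 chains (Lamb1 and Lamb3) were higher and 0 lower at 2 h, against 6.25% of all genes tested (4.23% higher, 2.01% lower). Under the same condition 2 chains (Lamb1 and Lamb3) were higher and 0 lower at 12 h, against 19.6% (8.03% higher, 11.6% lower), and 1 chain (Lamb1) rose and 1 (Lamb2) fell between 2 h and 12 h, against 14.4% (4.5% higher, 9.87% lower). The median log2FC of the 5 chains was 0.45 at 2 h, -0.49 at 12 h and -0.92 between 2 h and 12 h, whereas that of all genes tested was -0.01, 0.02 and 0.01. Scaling by total counts in place of TMM factors changed the split of all calls from 1098 higher and 582 lower to 854 higher and 975 lower at 2 h, and from 2414 higher and 2385 lower to 1830 higher and 3047 lower at 12 h, whereas no tested chain changed direction.

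The libraries of the groups were also compared without a test. At 2 h, 4 of the 5 chains lay above vehicle in both libraries, 0 lay below it and Lamc1 overlapped, whereas 28.4% of all genes tested lay above and 27.5% below. At 12 h, 2 chains lay above vehicle and 3 below it in both libraries (39.6% and 37.2% of all genes), and the same numbers held for 12 h against 2 h (34.8% and 34.2% of all genes).

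Comparisons of both times with vehicle share the vehicle libraries. Those were taken at 2 h only, so that at 12 h the effect of TGFβ1 and that of the longer time without serum cannot be told apart. The comparison between the treated groups involves no vehicle library but the same difference in time.

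**Figure D1:**
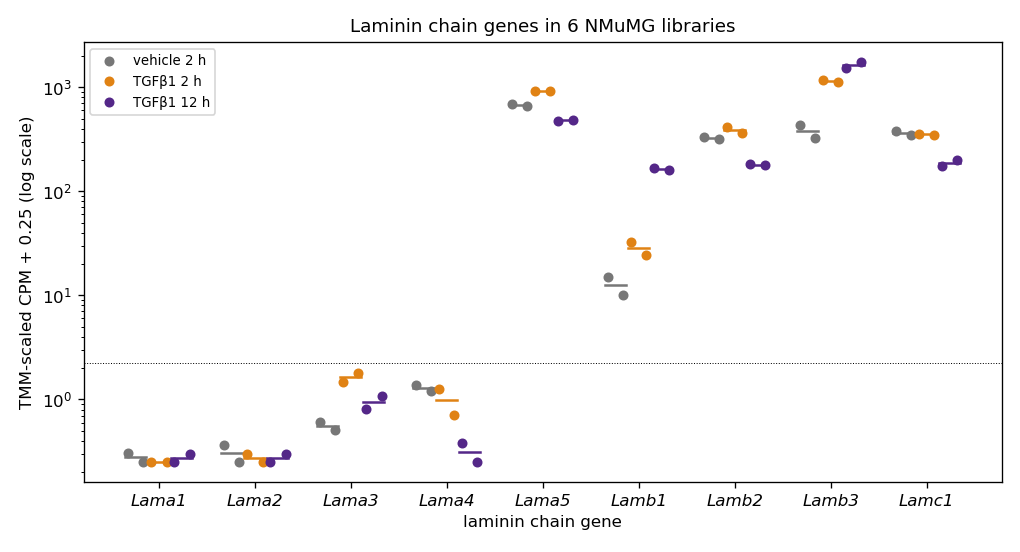
Level of the 9 laminin chain genes in each library, as TMM-scaled CPM plus 0.25 on a log axis, with 1 point per library, a bar at the mean of each group (n = 2) and a dotted line at the filter of 2 CPM. Lamb1 and Lamb3 climb from vehicle to 12 h, Lama5, Lamb2 and Lamc1 are lowest at 12 h, and the other 4 alpha chains lie under the filter in all 6 libraries.

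Among the alpha chains, Lama5 held nearly all of the reads. This gene encodes the main alpha chain of adult epithelial basement membranes, which cells bind through integrins such as the products of Itga3, Itga6 and Itgb1. Lama5 had 695 and 654 CPM with vehicle, 920 and 918 at 2 h and 473 and 486 at 12 h. Both libraries at 2 h lay above, and both at 12 h below, the vehicle libraries. The log2FC was 0.45 at 2 h (SE 0.096, adjusted p = 0.0262) and -0.49 at 12 h (SE 0.096, adjusted p = 0.00680), a rise of 1.36-fold followed by a level 1.41-fold lower than with vehicle. Between the treated groups Lama5 fell by 0.94 on the log2 scale (SE 0.097, adjusted p = 0.000956).

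The rise of Lama5 at 2 h was small, and its call was lost in several of the other fits. It had an adjusted p of 0.111 without vehicle replicate 1, 0.160 without vehicle replicate 2, 0.0587 without 2 h replicate 2, 0.0810 without 12 h replicate 1, 0.0831 without 12 h replicate 2, 0.0592 with total counts in place of TMM factors and 0.0832 with only the 2 groups compared in the fit, with a log2FC between 0.34 and 0.49 in every fit made. At 12 h the call was lost without 12 h replicate 1 (adjusted p = 0.0568) and without 12 h replicate 2 (adjusted p = 0.05, at the threshold), with a log2FC between -0.62 and -0.45.

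Lama3 encodes the alpha chain of the anchoring laminin and so partners the Lamb3 chain. It had 6 and 4 counts with vehicle, 24 and 31 counts at 2 h, and 13 and 16 counts at 12 h. The groups did not overlap, but Lama3 remained at 1.39 CPM on average at 2 h, under the filter. The 55 counts at 2 h against 10 with vehicle gave a ratio of 4.54 (95% exact interval 2.29 to 9.99, counting error only). In a fit without the filter the log2FC of Lama3 was 2.16 at 2 h (SE 0.488, adjusted p = 0.0220), 1.16 at 12 h (adjusted p = 0.128) and -1.0 between 2 h and 12 h (adjusted p = 0.120).

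Lama4, the alpha chain of laminins of blood vessels and mesenchyme, went the other way at 12 h. It had 19 and 15 counts with vehicle, 20 and 9 counts at 2 h, and 3 and 0 counts at 12 h. The vehicle and 2 h libraries overlapped, and both libraries at 12 h lay below them. The ratio of 12 h to vehicle was 0.0680 (95% exact interval 0.0134 to 0.216, counting error only), and the fit without the filter gave an adjusted p of 0.00910 at 12 h and 0.705 at 2 h. Lama1, which is typical of the early embryo, and Lama2, the chain of muscle laminin, had at most 1 and 2 counts in any library, too few for a comparison at this depth.

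Lamb3 encodes the beta chain of the anchoring laminin and was the most abundant chain gene per length in every group. It had 437 and 327 CPM with vehicle, 1182 and 1124 at 2 h and 1538 and 1731 at 12 h. The groups did not overlap, and the vehicle libraries stood further apart from each other, relative to their mean, than those of the treated groups. The log2FC of Lamb3 was 1.59 at 2 h (SE 0.161, adjusted p = 0.00174), a 3.02-fold rise, and 2.10 at 12 h (SE 0.163, adjusted p = 0.000183), a 4.28-fold rise. By its mean level Lamb3 ranked 296 of all genes counted with vehicle and 36 at 12 h. Most of the change was present at 2 h, since the further rise to 12 h was 1.42-fold (log2FC 0.50, SE 0.157, adjusted p = 0.0482). That last call was lost without 2 h replicate 1 (adjusted p = 0.0681), 2 h replicate 2 (0.109), 12 h replicate 1 (0.129) or 12 h replicate 2 (0.243), and with a filter of at least 10 counts in every library (0.0525).

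Lamb1, the beta chain of the most widely expressed laminins, started from a low level and had the largest fold change of the 5 tested chains at 12 h. It had 14.8 and 9.87 CPM with vehicle, 32.4 and 24.1 at 2 h and 169 and 160 at 12 h. Each group lay above the one before it with no overlap. The log2FC of Lamb1 was 1.20 at 2 h (SE 0.221, adjusted p = 0.0155), a 2.29-fold rise, and 3.74 at 12 h (SE 0.231, adjusted p = 8.45e-05), a 13.3-fold rise. In contrast to Lamb3, most of the change of Lamb1 came after 2 h, with a 5.81-fold rise between 2 h and 12 h (log2FC 2.54, SE 0.215, adjusted p = 0.000533). The call at 2 h was lost without vehicle replicate 2 (adjusted p = 0.0651), 12 h replicate 1 (0.0590) or 12 h replicate 2 (0.0588), and with only the 2 groups compared in the fit (0.0676). In the ranking of all genes counted by mean level, Lamb1 moved from 8620 with vehicle to 1300 at 12 h.

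Lamb2 takes the place of Lamb1 in laminins that are known from the neuromuscular junction and the kidney glomerulus. It had 330 and 314 CPM with vehicle, 415 and 363 at 2 h and 182 and 179 at 12 h. Both libraries at 2 h lay above vehicle, but the log2FC of 0.27 (SE 0.107) did not pass the test (adjusted p = 0.149). At 12 h the level of Lamb2 was 1.79-fold lower than with vehicle (log2FC -0.84, SE 0.107, adjusted p = 0.00121), and between 2 h and 12 h it fell by 1.11 on the log2 scale (SE 0.108, adjusted p = 0.000825).

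**Figure D2:**
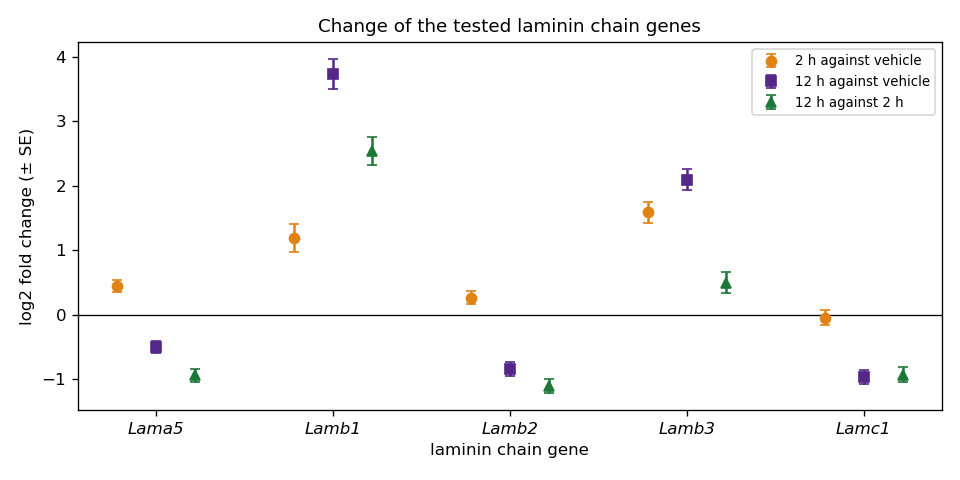
Log2 fold change (± SE, edgeR) of the 5 tested laminin chain members in the 3 comparisons. Lamb3 and Lamb1 are above 0 in all 3, Lama5 is above 0 at 2 h and below 0 in both comparisons of 12 h, and Lamc1 is near 0 at 2 h and at or below -0.92 in both comparisons of 12 h.

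The make-up of the beta chain transcripts differed between the groups. Shares were computed in each library from counts per kilobase of exon and, because the exon model of Lamb1 is much longer than its coding sequence (9917 against 5502 bases), also per kilobase of coding sequence. With 2 libraries per group a two-sided exact permutation test cannot go below p = 0.333, so that shares are given as a description. Lamb3 held 62.5% and 56.8% of the beta chain transcripts with vehicle, 77.9% and 79.4% at 2 h, and 87.7% and 89.2% at 12 h. Lamb2 held 36.6% and 42.4% with vehicle, 21.2% and 19.9% at 2 h, and 8.05% and 7.16% at 12 h. Neither gene's groups overlapped. The share of Lamb1 was 0.928% and 0.755% with vehicle and 0.940% and 0.750% at 2 h, which overlapped, and 4.24% and 3.63% at 12 h, which did not. Per kilobase of coding sequence the mean share of Lamb1 went from 1.30% ± 0.18 with vehicle to 5.68% ± 0.614 at 12 h (SD, n = 2), that of Lamb2 from 35.3% ± 3.94 to 6.35% ± 0.521, and that of Lamb3 from 63.4% ± 3.75 to 88.0% ± 1.13.

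Lamb1 and Lamb2 take the same place beside Lama5 and Lamc1 in the trimer. There were 0.0447 and 0.0314 reads of Lamb1 for each read of Lamb2 with vehicle, 0.0782 and 0.0666 at 2 h, and 0.928 and 0.894 at 12 h. These are ratios of counts; per kilobase of coding sequence, over which both genes have nearly equal lengths, they were 0.910 and 0.877 at 12 h. Among the alpha chain transcripts, Lama5 held 99.79% ± 0.0424 with vehicle, 99.76% ± 0.0141 at 2 h and 99.82% ± 0.0354 at 12 h per kilobase of exon (SD, n = 2).

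**Figure D3:**
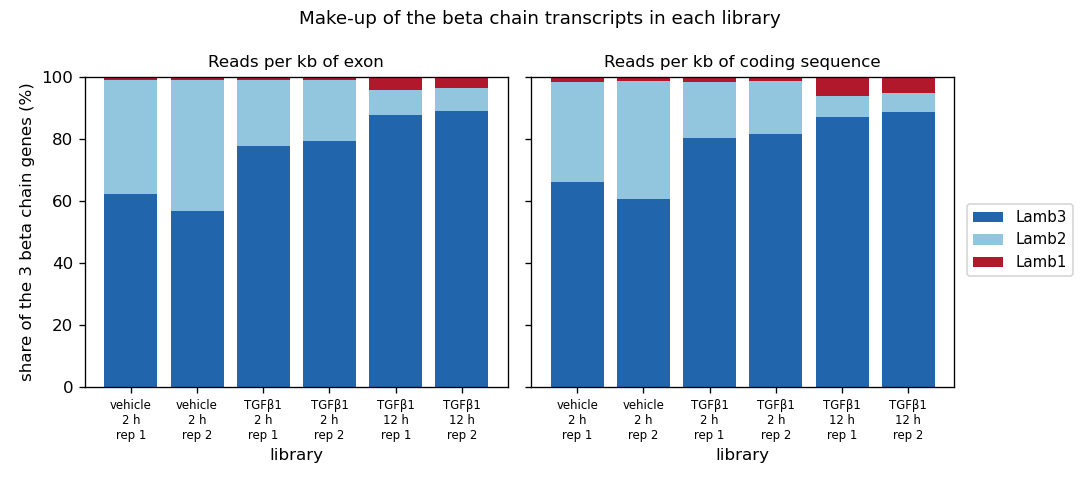
Share of each of the 3 beta chain genes in their summed reads per kilobase, by library, with exon length on the left and coding length on the right. The bars show the share of Lamb3 growing from 56.8 to 62.5% with vehicle to 87.7 to 89.2% at 12 h per kilobase of exon, while that of Lamb2 shrinks to 7.16 to 8.05%.

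Lamc1 encodes the gamma chain that most laminins share. It had 375 and 347 CPM with vehicle, 359 and 344 at 2 h and 173 and 198 at 12 h. The vehicle and 2 h libraries overlapped, with a log2FC of -0.04 (SE 0.11, adjusted p = 0.843), and both libraries at 12 h lay below all others. The level of Lamc1 at 12 h was 1.95-fold lower than with vehicle (log2FC -0.96, SE 0.112, adjusted p = 0.000787) and 1.90-fold lower than at 2 h (log2FC -0.92, SE 0.112, adjusted p = 0.00165). Lama5, Lamb2 and Lamc1, whose chains can form a trimer together, were all lower at 12 h than with vehicle, with falls of 1.41-fold, 1.79-fold and 1.95-fold. Lamc3, another gamma chain that is no member of the set, had at most 11 counts in any library.

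The alpha and beta chains of the anchoring laminin were far from equal in reads. For each read of Lama3 there were between 719.5 and 2717 reads of Lamb3 across the 6 libraries. Levels of the chains per length were therefore compared in each group. Per kilobase of exon, the order with vehicle was Lamb3 (87.5 ± 17.9 CPM per kb, SD, n = 2), Lama5 (59.1 ± 2.54), Lamb2 (57.3 ± 1.98), Lamc1 (43.7 ± 2.37) and Lamb1 (1.24 ± 0.349), and Lama5 and Lamb2 did not differ beyond their spread. At 2 h it was Lamb3 (264 ± 9.32), Lama5 (80.6 ± 0.0856), Lamb2 (69.1 ± 6.54), Lamc1 (42.5 ± 1.21) and Lamb1 (2.85 ± 0.589). At 12 h it was Lamb3 (374 ± 31.3), Lama5 (42.1 ± 0.783), Lamb2 (32.1 ± 0.367), Lamc1 (22.4 ± 2.16) and Lamb1 (16.6 ± 0.624). The place of Lamc1 depended on the length used. Per kilobase of coding sequence Lamc1 (73.5 CPM per kb) came after Lamb3 (109) and before Lama5 (60.4) and Lamb2 (59.7) with vehicle, and at 12 h Lamc1 (37.7) came between Lama5 (42.9) and Lamb2 (33.4), with Lamb1 at 29.9.

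Receptors that bind laminin were counted from a list of 8 genes, of which all 8 were tested. At 2 h, 3 rose and 0 fell, and at 12 h 3 rose and 1 fell (edgeR), against 9.91% of all genes tested called higher and 5.25% lower at 2 h and 21.8% and 21.5% at 12 h. The median log2FC of the list was 0.24 at 2 h and 0.13 at 12 h. Itga6 and Itgb4, which form the laminin receptor of hemidesmosomes, rose at 2 h with a log2FC of 0.86 (SE 0.096, adjusted p = 0.00243) and 0.75 (SE 0.095, adjusted p = 0.00380). At 12 h the log2FC was 0.16 for Itga6, which did not pass the test (adjusted p = 0.211), and 0.48 for Itgb4 (adjusted p = 0.00733). The latter call was lost without vehicle replicate 2 (adjusted p = 0.0609) or 12 h replicate 1 (adjusted p = 0.0654). Itgb1, the beta subunit of the other laminin-binding integrins, was at 570 ± 10.9 CPM with vehicle and 2014 ± 70.5 CPM at 12 h (SD, n = 2), a 3.53-fold rise (adjusted p = 0.000117). Cd151, a tetraspanin that binds these integrins, rose by 0.48 at 2 h and 1.03 at 12 h on the log2 scale. Its call at 2 h was lost with total counts (adjusted p = 0.0897), with only the 2 groups compared in the fit (0.0970), and without vehicle replicate 1 (0.159), vehicle replicate 2 (0.177), 2 h replicate 2 (0.112), 12 h replicate 1 (0.0954) or 12 h replicate 2 (0.0971). Itga7, an integrin subunit of muscle, was 5.91-fold lower at 12 h (adjusted p = 0.00199), from 4.48 ± 1.74 to 0.755 ± 0.0209 CPM. Bcam, a receptor of the Lama5 chain, did not pass the test at 12 h (log2FC -0.65, adjusted p = 0.0504). With the replicate number as a block it was called lower (log2FC -0.64, adjusted p = 0.0114). It was also called lower with DESeq2 size factors, with total counts, with at least 10 counts in every library and with only the 2 groups compared.

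Partners of laminin in the basement membrane were counted from a list of 13 genes, of which 8 were tested. At 2 h, 2 rose and 0 fell, and at 12 h 6 rose and 1 fell, with a median log2FC of 0.41 and 0.61. Of all genes tested, 15.2% were called at 2 h (9.91% higher) and 43.3% at 12 h (21.8% higher). The difference of the list from these shares was not tested. With a library left out, fewer genes of this list were called higher at each time in some fits. Fewer of all genes tested were called in those fits as well. Hspg2, the proteoglycan perlecan, rose by 1.10 at 2 h (adjusted p = 0.00328) and 0.63 at 12 h (adjusted p = 0.00924) on the log2 scale, the latter call being lost without vehicle replicate 1 (adjusted p = 0.0649), 12 h replicate 1 (0.0601) or 12 h replicate 2 (0.0602). Both chains of the main collagen IV network rose at 12 h, Col4a1 by 0.98 (adjusted p = 0.00191) and Col4a2 by 1.03 (adjusted p = 0.00273). Agrn, a proteoglycan that binds laminin, rose by 0.50 at 12 h, Col18a1 by 0.76 and Ntn4, a netrin with a laminin-like domain, by 0.60. The call of Agrn was lost without vehicle replicate 2 (adjusted p = 0.0993), 12 h replicate 1 (0.0929) or 12 h replicate 2 (0.0864), and that of Col18a1 without 12 h replicate 2 (0.0522). The call of Ntn4 was lost with total counts (0.0570) and without vehicle replicate 1 (0.121) or 12 h replicate 2 (0.134). Nid2, one of the nidogens that tie laminin to collagen IV, fell by 1.76 on the log2 scale at 12 h (SE 0.361, adjusted p = 0.00825). With the replicate block 4 genes of the list rose at 2 h, adding Col4a2 (adjusted p = 0.00521, against 0.0938) and Col18a1 (0.020, against 0.0635). At 12 h 7 rose, adding Sparc (0.0376, against 0.0722). In the same fit the share of all genes called higher grew from 9.91% to 16.4% at 2 h and from 21.8% to 27.8% at 12 h. The share called in either direction grew from 15.2% to 29.1% at 2 h and from 43.3% to 55.3% at 12 h.

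**Figure D4:**
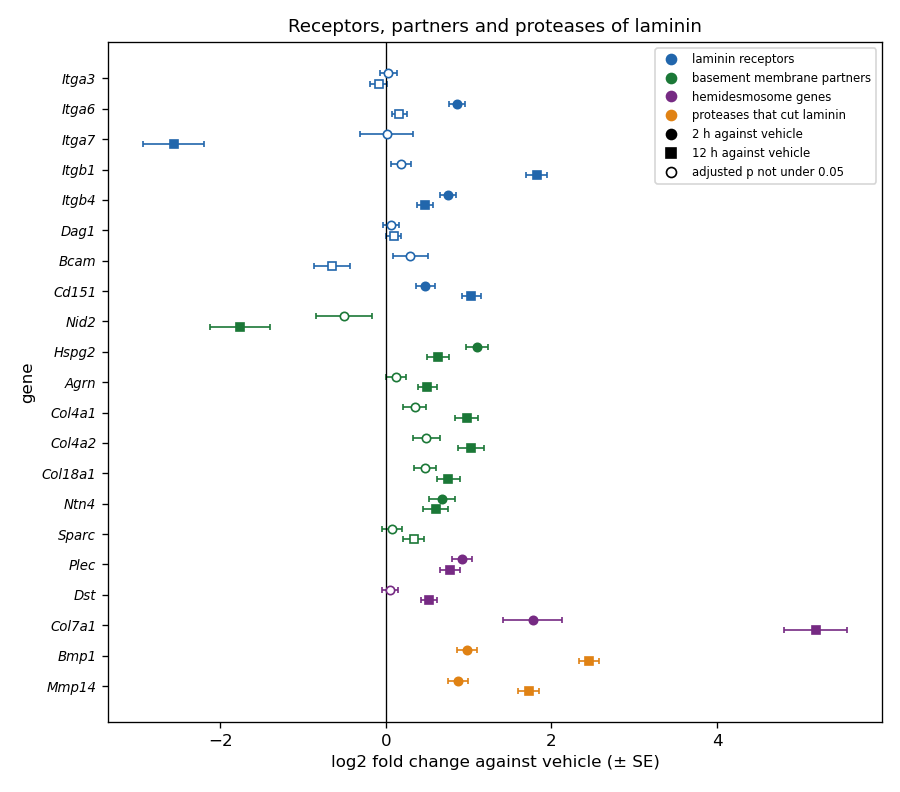
Log2 fold change against vehicle (± SE, edgeR) of the tested genes of the receptor, partner, hemidesmosome and protease lists, with circles at 2 h, squares at 12 h and open symbols where the adjusted p was not under 0.05. Col7a1 at 12 h lies farthest to the right (5.19), and Itga7 (-2.56) and Nid2 (-1.76) at 12 h lie to the left. Itga6, Itgb4 and Cd151 stand on both the receptor and the hemidesmosome list and are drawn once.

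Genes of the hemidesmosome, where the anchoring laminin meets the cell, were counted from a list of 7 that shares Itga6, Itgb4 and Cd151 with the receptors, and 6 were tested. At each time 5 rose and 0 fell, with a median log2FC of 0.81 at 2 h and 0.64 at 12 h, against 9.91% and 21.8% of all genes tested called higher. With a library left out, fewer genes of the list were called higher at each time in some fits. In those fits fewer of all genes tested were called as well. Col7a1, the collagen of the anchoring fibrils that bind this laminin, had 5.05 ± 0.153 CPM with vehicle, 17.3 ± 8.17 CPM at 2 h and 185 ± 43.0 CPM at 12 h (SD, n = 2). Its log2FC was 1.77 at 2 h (SE 0.361, adjusted p = 0.0218) and 5.19 at 12 h (SE 0.378, adjusted p = 0.000147). The call at 2 h was lost in limma-voom (adjusted p = 0.0611), with only the 2 groups compared in the fit (0.0564), and without vehicle replicate 1 (0.114), vehicle replicate 2 (0.0962), 12 h replicate 1 (0.0514) or 12 h replicate 2 (0.0516). Plec, the plectin that links Itgb4 to keratin, rose by 0.92 and 0.77, and Dst, which encodes another such linker, rose by 0.52 at 12 h, a call lost without vehicle replicate 1 (adjusted p = 0.0518) or 12 h replicate 2 (0.0577). Of 4 proteases known to cut laminin chains, 2 were tested and both rose at both times, against 9.91% of all genes tested called higher at 2 h and 21.8% at 12 h. Bmp1, which trims laminin chains after their secretion, rose 1.98-fold at 2 h and 5.47-fold at 12 h (adjusted p = 0.00324 and 4.90e-05). Mmp14, a membrane-bound protease, rose 1.83-fold and 3.31-fold (adjusted p = 0.00533 and 0.000139).

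Genes with the pattern most like that of the 2 chains that changed more than 2-fold at 12 h were found by the distance between log2 CPM values centred on each gene's mean over the 6 libraries. Nearest to Lamb1 were Syt12 (distance 0.326), Ltbp2 (0.496) and Mmp24 (0.556), with Pearson's r over the 6 libraries of 0.997, 0.992 and 0.990. Nearest to Lamb3 were Lpar1 (0.206), Itgb5 (0.213) and Nbl1 (0.246), with r of 0.996, 0.997 and 0.995. The log2FC of Itgb5, an integrin beta subunit, was 1.79 at 2 h and 2.19 at 12 h, beside 1.59 and 2.10 for Lamb3. The 6 libraries fall into 3 groups that these genes separate, so that such r values are a description of the group means. A pseudocount of 0.25 CPM entered the distance and compresses the changes of low genes, and Ltbp2 had a log2FC of 5.97 at 12 h in the test, beside 3.74 for Lamb1.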

How the data were processed

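According to the study's methods, the authors filtered single-end reads, mapped them to mm9 with subjunc of Rsubread (unique hits), applied the rmdup command of SAMtools 0.1.19 and counted reads on the exons of UCSC KnownGenes by strand with featureCounts. The authors deposited raw counts per gene, which are whole numbers with no normalization. The highest count of Lamb3 was 35320, or 8.09 per exon base, which is more than the start positions that its exons offer on 1 strand, so that reads with a shared start were still counted. Such reads have no molecular identifiers, and exact intervals cover counting error only.

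Counts were scaled with TMM factors and tested with edgeR 4.0.16 (quasi-likelihood test, two-sided) in R 4.3.3, in 1 fit of 6 libraries, for the 11080 genes that reached 2 CPM in 2 or more libraries. Benjamini-Hochberg adjustment was made over all genes tested in a comparison, and a gene was called at an adjusted p under 0.05. With 2 libraries a group, p-values rest on the spread between libraries of a group, which the labels call biological replicates. The fit estimates that spread from all 3 groups together and draws each gene's value toward a trend over all genes. The standard error is the log2FC divided by the square root of the F value. The common biological coefficient of variation was 0.148. Levels are TMM-scaled CPM, given per kilobase of exon or coding sequence of the GENCODE models on NCBIM37. The reads were counted on UCSC KnownGenes, so that counts and lengths come from different gene models. Levels per kilobase and shares depend on that difference. Promoter windows came from RefSeq (GRCm38.p6), motifs were searched in Python 3.11.15 with the windows of chromosome 18 left out, and plots were drawn with matplotlib 3.10.9. No protein sequences were used here.

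The deviations of same-numbered libraries from the means of their groups correlated across genes, at 0.708 (vehicle and 2 h), 0.263 (vehicle and 12 h) and 0.392 (2 h and 12 h). The study's methods use no pairing, and the labels give only the number. A fit with this number as a block was an alternative, beside DESeq2 1.42.0, limma-voom (limma 3.58.1), DESeq2 size factors, total counts, other filters, a fit of only the 2 groups compared, and each library left out in turn. The fitting step was tested on simulated counts.

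Genes named are the 9 members, genes of the fixed lists (Lamc3, receptors, partners, hemidesmosome genes and proteases) that passed the test, and the 3 genes nearest in pattern to each member called at 12 h with a log2FC above 1 in size. Bcam, Sparc, and the genes of the lists named for a call under an alternative were chosen after their values were seen, as were the cell type markers named. Lamc3 was named for its low counts. Itga3 was named as a receptor of the Lama5 chain and passed no test in edgeR (adjusted p = 0.870 at 2 h, 0.540 at 12 h and 0.420 between 2 h and 12 h). Another gene of the fixed lists is not reported here. The members and lists were chosen with earlier results of these data known.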

Additional observations from a re-analysis of the deposited data

Results flagged for a closer look

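In 5 of 5 tested laminin chains the effect at 12 h differed from that at 2 h, by a direct test of 12 h against 2 h in edgeR's fit, against 34.1% of all genes tested. The log2FC between 2 h and 12 h was 2.54 for Lamb1 (SE 0.215, adjusted p = 0.000533) and 0.5033 for Lamb3 (SE 0.157, adjusted p = 0.0482), both higher at 12 h in 2 of 2 libraries. It was -0.9379 for Lama5 (adjusted p = 0.000956), -1.107 for Lamb2 (adjusted p = 0.000825) and -0.9236 for Lamc1 (adjusted p = 0.00165), all lower at 12 h in 2 of 2 libraries. The time without serum also differed between these groups and cannot be told apart from the time with TGFβ1. For Lamb3 the call was lost when any of the 4 treated libraries was left out, with adjusted p between 0.0681 and 0.243.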

How the results depend on the processing

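Of 120 values of log2FC of the 5 tested chains in fits with another setting, 116 kept their direction and their side of the threshold and 4 lost the call (Lama5 at 2 h with total counts or with only the 2 groups compared, Lamb1 at 2 h with only the 2 groups compared, and Lamb3 between 2 h and 12 h with at least 10 counts in every library). Of 90 values with 1 library left out, 75 did so, 14 lost the call, and 1 changed direction, namely Lamc1 at 2 h, which was not called (log2FC 0.01396 without vehicle replicate 1, and between -0.09584 and 0.01396 over the libraries left out). With the replicate number as a block, 3, 5 and 5 chains were called in the 3 comparisons as without it, and no chain call changed (Lamb1 at 2 h had a log2FC of 1.20 with an adjusted p of 0.000286 in the paired fit), while calls among all genes at 2 h went from 1680 to 3222 and at 12 h from 4799 to 6127. With only the 2 groups compared, 1 chain was called at 2 h, and all genes called were 882. With a library left out, the number of chains called lay between 1 and 3 at 2 h, 4 and 5 at 12 h, and 4 and 5 between 2 h and 12 h, and that of all genes fell to 618 at 2 h (without vehicle replicate 1, against 709, 900 and 900 without vehicle replicate 2 or either 12 h library), 2822 at 12 h and 1605 between 2 h and 12 h (without a 12 h library), against 1680, 4799 and 3775. A lone library left in a group was taken to vary like the other groups. Total counts in place of TMM factors moved the median log2FC of all genes by -0.111 at 2 h and -0.129 at 12 h. With them the levels per kilobase of exon were 62.5 CPM for Lama5, 60.6 for Lamb2 and 46.2 for Lamc1 with vehicle, and 40.7 for Lama5 and 31.0 for Lamb2 at 12 h. With coding length they were 2.24 (vehicle) and 29.9 (12 h) for Lamb1, 59.7 and 33.4 for Lamb2, 109 and 465 for Lamb3, 73.5 and 37.7 for Lamc1, and 42.9 for Lama5 at 12 h. The shares were then 1.30%, 1.26% and 5.68% for Lamb1 and 35.3%, 17.8% and 6.35% for Lamb2 in the 3 groups, 81.0% for Lamb3 at 2 h, and 99.6% and 99.7% for Lama5 with vehicle and at 2 h. The cause was not tested for the other lost calls, whereas the last changes follow from the length used. Depth limits Lama1, Lama2, Lama3 and Lama4, which had at most 31 counts in a library.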
